A study of Mus musculus with 2 samples.

Results

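The genes described here encode the subunits of 2 families of chromatin remodelling complexes, BAF and NuRD, in progenitors of group 2 innate lymphoid cells (ILC2). The members were chosen by gene symbol and not by a threshold on their values, though earlier results of these data were known. All 35 were found among the 27179 gene rows of the deposited tables. They divide into 14 shared BAF subunits, 6 subunits counted with canonical BAF (cBAF), 4 subunits of PBAF and 11 of NuRD. Progenitors were sorted by flow cytometry from the marrow of C57BL/6 mice aged 8 weeks, and 2 RNA-seq libraries were made, each of RNA pooled from 8 mice (100 ng total RNA). There was 1 group and no treated, mutant or other control group. Neither the sort antibodies nor the animals' sex is given in the sources used here.

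BAF complexes, the mammalian form of SWI/SNF, use ATP to slide or evict nucleosomes and keep enhancers and promoters accessible. They share an ATPase, and cBAF and PBAF also share a common core. The subunits counted here as shared are those of both cBAF and PBAF. Other subunits define cBAF, PBAF and the non-canonical form, ncBAF. NuRD joins a CHD-family remodelling ATPase to histone deacetylases, with MBD and MTA proteins as scaffold, and is best known for closing enhancers and promoters. Many of these positions can be filled by any of several paralogous proteins, so the mix of paralogs describes which assemblies a cell can make. The BRG1-containing BAF complexes and CHD4-containing NuRD are both known for work alongside lineage transcription factors in lymphocytes, and CHD4 for its partnership with GATA3 in type 2 helper T cells.

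RefSeq promoters were found for 27 of the 35 members, 31 promoters in all, each a window from 250 bases before the annotated start to 50 after it (GRCm38.p6). The members without an entry were Arid2, Bcl7a, Chd3, Hdac1, Mbd2, Mta3, Smarce1 and Ss18. Shown here are 6 promoters that carry the contrasts described further on: paralog pairs in which 1 gene was abundant and the other was at or under detection (Dpf2 against Dpf1, Smarcd2 against Smarcd3), the member with the highest level (Mta2), and the member with the most CG dinucleotides (Phf10). The letters read 5′ to 3′ towards the gene, capitals mark CG dinucleotides, and bases that an annotated UTR covers were left off. Dpf2 lies at chr19:5912872-5913121 (minus strand), Dpf1 at chr7:29303755-29303950 (plus), Smarcd2 at chr11:106267800-106267882 (minus), Smarcd3 at chr5:24602013-24602252 (minus), Mta2 at chr19:8941670-8941874 (plus) and Phf10 at chr17:14961274-14961510 (minus).
Dpf2: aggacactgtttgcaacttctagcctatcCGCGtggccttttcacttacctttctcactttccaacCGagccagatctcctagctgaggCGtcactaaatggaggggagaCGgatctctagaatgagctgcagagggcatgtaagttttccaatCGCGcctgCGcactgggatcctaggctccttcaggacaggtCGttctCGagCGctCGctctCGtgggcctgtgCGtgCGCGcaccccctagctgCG
Dpf1: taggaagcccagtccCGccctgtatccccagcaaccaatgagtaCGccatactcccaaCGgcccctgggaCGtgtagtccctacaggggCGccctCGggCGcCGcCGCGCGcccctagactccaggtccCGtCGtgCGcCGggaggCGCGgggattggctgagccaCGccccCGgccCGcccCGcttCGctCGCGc
Smarcd2: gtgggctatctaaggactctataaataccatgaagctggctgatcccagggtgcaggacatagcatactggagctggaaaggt
Smarcd3: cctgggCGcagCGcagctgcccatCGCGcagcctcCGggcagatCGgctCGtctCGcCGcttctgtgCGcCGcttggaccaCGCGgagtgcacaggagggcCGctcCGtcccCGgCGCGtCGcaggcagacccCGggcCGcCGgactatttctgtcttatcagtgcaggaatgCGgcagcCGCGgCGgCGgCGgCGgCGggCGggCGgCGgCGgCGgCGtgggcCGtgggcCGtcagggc
Mta2: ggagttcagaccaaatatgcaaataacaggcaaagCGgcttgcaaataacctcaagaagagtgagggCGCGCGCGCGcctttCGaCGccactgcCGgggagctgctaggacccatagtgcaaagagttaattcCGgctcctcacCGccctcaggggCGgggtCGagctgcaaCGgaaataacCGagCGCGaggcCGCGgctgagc
Phf10: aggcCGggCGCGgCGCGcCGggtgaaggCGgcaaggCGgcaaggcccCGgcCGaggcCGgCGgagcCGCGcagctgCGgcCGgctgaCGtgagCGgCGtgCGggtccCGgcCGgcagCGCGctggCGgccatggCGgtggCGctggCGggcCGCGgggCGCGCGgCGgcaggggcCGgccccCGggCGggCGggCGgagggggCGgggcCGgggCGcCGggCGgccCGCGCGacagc
The Smarcd2 and Smarcd3 entries belong to starts inside the gene, 5366 and 22454 bases downstream of the outermost annotated end, so they are not the only starts of these genes.

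The 2 libraries held 20216146 and 19834586 reads, totals that were recovered from the steps between the deposited values. The steps fix these totals only up to a whole factor, which was chosen on genes of 1 exon. The unit is RPKM, reads scaled to the length of the gene and the depth of the library. That allows levels to be compared between genes, but does not correct for sequence or exons shared with other genes. Such sharing is given below for the members most affected. Detection was set at 1 RPKM in each of the pools, which 11013 of 27179 rows reached (40.5%). All 8 fixed ILC2 markers were detected, with means from 53.7 RPKM (Rora) to 1160 RPKM (Ly6a). Of these 8, 2 were 1.5-fold or more apart between the pools: Id2, at 709.7 RPKM in pool 1 and 287 RPKM in pool 2, and Il1rl1, at 173 and 262 RPKM. Genes of other cells were present too, and their summed RPKM differed between the pools: 956 in pool 1 and 2307 in pool 2 for 7 neutrophil genes (7 of 7 detected, highest S100a9), 60.3 and 659 for 9 eosinophil genes (7 detected, highest Prg2), 922 and 2626 for 7 erythroid genes (7 detected, highest Hba-a2), 241 and 405 for 5 T cell genes (4 detected, highest Cd3g; Cd8a at 0) and 448 and 403 for 6 B cell genes (3 detected, highest Ighm). A summed 9571 RPKM in pool 1 and 540 RPKM in pool 2 was measured for 8 immediate early genes (8 of 8 detected, highest Zfp36). The part of these differences in the members' values was not tested. Pools were numbered in accession order, and 0 of 2 column headings inside the files match their own sample, each carrying the code of the other: should the headings be correct, the names of the pools are exchanged in every difference that follows. Each SD below is over the 2 pools and measures only the spread between them, and an exact sign-flip test over 2 libraries cannot give a two-sided p below 0.5, so no p-value is given.

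Transcripts of most of the listed BAF and NuRD subunits were detected, while protein was not measured. Of the 35 members, 31 were detected (88.6%), beside 40.5% of all rows, and 2 were listed at 0 in both pools, beside 36.6% of all rows. The 31 detected members ranged 16.5-fold, from 8.30 ± 0.449 RPKM (Arid1b) to 137 ± 9.15 RPKM (Mta2). Their median was 30.0 RPKM, against 14.6 RPKM for all detected genes. At a mean of 10 RPKM or more stood 29 of the 31 detected members, beside 60.9% of detected genes, and at 50 RPKM or more 10 of 31, beside 16.5%. By complex, the median of detected members was 62.7 RPKM in NuRD (11 of 11 detected, 20.9 to 137), 38.0 RPKM in cBAF (4 of 6, 8.30 to 75.8), 33.7 RPKM among shared BAF subunits (12 of 14, 8.34 to 75.8) and 18.0 RPKM in PBAF (4 of 4, 10.7 to 23.5). Over all members of a group, undetected ones included, it was 19.1 RPKM in cBAF and 27.4 RPKM among shared BAF subunits. In RNA from a sorted population, fewer cells that express a gene and less RNA of it per cell cannot be told apart.

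**Figure D1:**
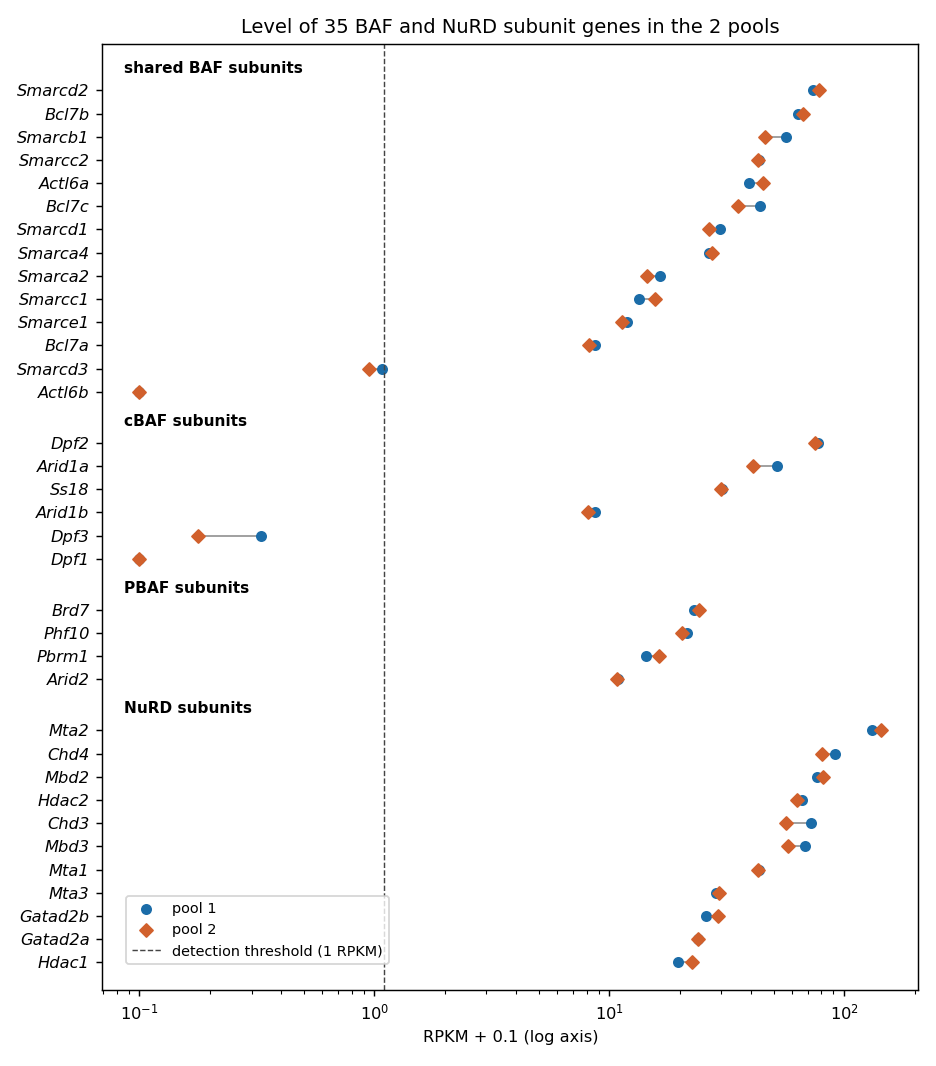
Level of each of the 35 members (RPKM + 0.1, log axis) in pool 1 (circles) and pool 2 (diamonds), joined by a line and grouped by complex; the dashed line is the detection threshold of 1 RPKM, plus the same 0.1. Both pools lie close together for each detected member, NuRD genes reach furthest right, and Actl6b and Dpf1 sit at 0 RPKM on the left edge.

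The catalytic ATPase of every BAF complex is encoded by Smarca4 (BRG1) or Smarca2 (BRM), only 1 of which is built into a given complex. Smarca4 (Entrez ID 20586, chromosome 9, 21616106 to 21704230) was at 26.4 RPKM in pool 1 and 27.3 RPKM in pool 2. Smarca2 was at 16.4 and 14.4 RPKM. Smarca4 was the higher in both pools, by 1.61- and 1.90-fold, a mean log2 ratio of 0.80 ± 0.17 (SD, n = 2), and it held 63.6 ± 2.69% of the pair's summed RPKM. Transcripts of both ATPase genes were thus detected, and their ranges over the pools did not overlap.

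In cBAF and PBAF, the core on which the ATPase sits is built from SMARCC, SMARCD, SMARCB1 and SMARCE1 proteins. Of the SMARCC scaffold pair, Smarcc2 (BAF170) was at 43.2 and 43.0 RPKM and Smarcc1 (BAF155) at 13.3 and 15.6 RPKM. The log2 ratio of Smarcc1 to Smarcc2 was -1.69 in pool 1 and -1.46 in pool 2, so Smarcc2 was 2.98-fold higher on average and held 74.9 ± 2.16% of the sum. Smarcc1 is the scaffold of the embryonic stem cell form of BAF, and Smarcc2 that of many differentiated cells. Smarcb1 (SNF5), which contacts the nucleosome's acidic patch, was at 56.5 and 46.1 RPKM, and Smarce1 (BAF57), a DNA-binding HMG-box subunit, at 11.8 and 11.2 RPKM. Of the 50-base windows in Smarce1 transcripts 15% also occur in those of other genes, mainly Gm8494 (10.6%), so its value is uncertain to that extent.

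SMARCD (BAF60) proteins link BAF to transcription factors, and each of the 3 genes is known for a different range of tissues. Smarcd2 (BAF60b), required for the granulocyte lineage, led in these cells at 73.6 RPKM in pool 1 and 77.9 RPKM in pool 2. Smarcd1 (BAF60a), the widely expressed form, was at 29.4 and 26.5 RPKM. Smarcd3 (BAF60c), the form of heart and skeletal muscle, was at 0.975 and 0.848 RPKM, just under the detection threshold in both pools. The summed family RPKM was divided as 72.4 ± 2.28% Smarcd2, 26.8 ± 2.19% Smarcd1 and 0.871 ± 0.0931% Smarcd3, and Smarcd2 exceeded Smarcd1 by 2.70-fold. The few Smarcd3 reads, at least 34 and 29, come with a limit: Chpf2 on the opposite strand overlaps 48.2% of its exon bases, and stood at 23.0 and 19.9 RPKM, and the strand setting of the counting is not given in the sources used here. Neutrophil marker genes were higher in pool 2, as given above, and Smarcd2 differed by 1.06-fold between the pools. The part of neutrophil RNA in the Smarcd2 value was not tested. Of 4 muscle genes 1 was detected (Actn2), with Myod1 and Myog at 0.

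The actin-related subunit and the DPF finger proteins are the positions at which neurons exchange one paralog for another. Actl6a (BAF53a), the form of dividing cells, was at 39.1 RPKM in pool 1 and 44.9 RPKM in pool 2. Actl6b (BAF53b; Entrez ID 83766, chromosome 5, 137553361 to 137569582), the neuronal form, had 0 reads in both pools, which allows up to 0.0932 and 0.0950 RPKM (3 reads over the longest coding transcript, counting error only). Actl6a was therefore at least 419.9-fold higher in pool 1 and at least 473.0-fold higher in pool 2. A part of the Actl6a value is uncertain, since 10.1% of its 50-base windows lie in other genes' transcripts, mainly those of Mrpl47 on the opposite strand, which was at 10.6 and 17.6 RPKM.

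Dpf2 (BAF45d), the broadly expressed DPF protein of cBAF, was at 76.8 and 74.7 RPKM, the highest of all BAF subunits together with Smarcd2. Dpf1 (BAF45b; Entrez ID 29861, chromosome 7, 29303952 to 29317592), a neuronal form, had 0 reads in both pools, which allows up to 0.0643 and 0.0655 RPKM. Dpf2 was thus at least 1196-fold and at least 1141-fold higher. Dpf3 (BAF45c), found in heart and in neurons, was at 0.229 RPKM in pool 1 and 0.0777 RPKM in pool 2, which rest on at least 3 reads and 1 read. In all, Dpf2 held 99.8 ± 0.136% of the family's summed RPKM. The neuron markers were likewise at or near 0: 0 of 5 were detected, their summed RPKM was 0.10 and 0.17, and Rbfox3, Snap25 and Syt1 were at 0 in both pools.

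The BCL7 proteins are small accessory subunits that bind near the ATPase. Bcl7b was at 63.5 and 66.9 RPKM, Bcl7c at 43.5 and 35.3 RPKM and Bcl7a at 8.58 and 8.10 RPKM. The order Bcl7b, Bcl7c, Bcl7a was the same in both pools, with shares of 57.8 ± 4.05%, 34.8 ± 3.99% and 7.38 ± 0.0598%.

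ARID proteins decide which BAF form is assembled: ARID1A or ARID1B for cBAF, ARID2 for PBAF. Arid1a (Entrez ID 93760, chromosome 4, 133679008 to 133756769) was at 51.5 RPKM in pool 1 and 40.7 RPKM in pool 2. Arid1b, its paralog, was at 8.62 and 7.99 RPKM, the lowest mean of the 31 detected members. Arid2 was at 10.8 and 10.6 RPKM. Arid1a was 5.47-fold above Arid1b (log2 ratio 2.45 ± 0.16) and 4.25-fold above Arid2 (2.09 ± 0.22), and it held 70.6 ± 2.83% of the sum of the 3 genes. Ss18, a subunit of cBAF and ncBAF known from its fusion in synovial sarcoma, was at 30.1 and 29.8 RPKM.

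The other PBAF subunits were at middle levels. The double-bromodomain protein gene Brd7 was at 22.9 and 24.1 RPKM, and Phf10 (BAF45a), whose product takes the DPF position in PBAF, was at 21.2 and 20.3 RPKM. Pbrm1 (BAF180), which encodes the many-bromodomain subunit that reads acetylated histones, was at 14.2 and 16.1 RPKM. The 3 PBAF-specific genes and Arid2 thus lay between 10.7 and 23.5 RPKM on average, below Arid1a in each pool.

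**Figure D2:**
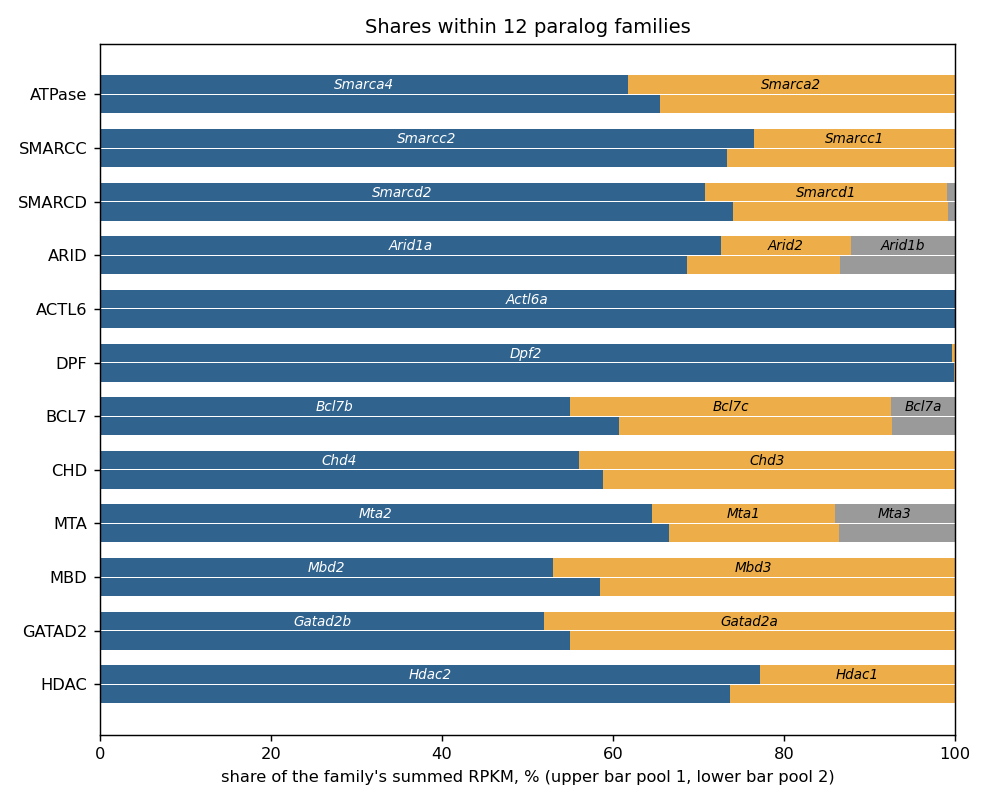
Share of each paralog family's summed RPKM (percent, bars reaching 100) held by each gene, pool 1 in the upper bar and pool 2 in the lower bar; genes under 6% carry no name. The same gene held the largest share in both pools in all 12 families, from 53.4% on average for Gatad2b to 100% for Actl6a.

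NuRD genes had the highest median of the 4 groups. The remodelling ATPases are CHD4 and CHD3, of which 1 is present in a given complex. Chd4 (Entrez ID 107932, chromosome 6, 125095980 to 125130591) was at 91.5 RPKM in pool 1 and 80.4 RPKM in pool 2, and Chd3 at 71.9 and 56.2 RPKM. Chd4 was 1.35-fold higher (log2 ratio 0.43 ± 0.12), and the ranges of the pair did not overlap. With 57.4 ± 2.03% for Chd4, the pair was shared more evenly than the SMARCC or HDAC pairs in both pools.

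MTA proteins form the dimeric scaffold that recruits and activates the deacetylases. Mta2 (Entrez ID 23942, chromosome 19, 8941920 to 8952300) was at 131 RPKM in pool 1 and 144 RPKM in pool 2, at the 95.1 percentile of detected genes and first among the members in both pools. Mta1 was at 43.4 and 42.9 RPKM and Mta3 at 28.4 and 29.2 RPKM. Mta2 exceeded Mta1 by 3.17-fold (log2 ratio 1.67 ± 0.11) and Mta3 by 4.74-fold (2.25 ± 0.07), and held 65.6 ± 1.43% of the sum.

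The MBD subunit defines alternative NuRD assemblies: MBD2 binds methylated CG dinucleotides, while mammalian MBD3 has largely lost that binding. Mbd2 was at 76.5 and 81.1 RPKM and Mbd3 at 68 and 57.5 RPKM. Mbd2 was 1.26-fold higher, with a log2 ratio of Mbd3 to Mbd2 of -0.17 in pool 1 and -0.49 in pool 2. GATAD2 proteins bridge the MBD protein to the CHD ATPase. Gatad2a was at 23.8 RPKM in both pools and Gatad2b at 25.7 and 29.0 RPKM, a difference of 1.15-fold in favour of Gatad2b, the smallest of the pairs examined.

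Hdac1 and Hdac2 encode the class I deacetylases of NuRD, which also serve other repressor complexes. Hdac2 was at 66.1 and 63.0 RPKM and Hdac1 at 19.4 and 22.4 RPKM. Hdac2 was 3.08-fold higher (log2 ratio of Hdac1 to Hdac2 -1.62 ± 0.19) and held 75.5 ± 2.48% of the pair. The level of Hdac1 is less certain than that of the other NuRD genes, as 35.5% of its 50-base windows also occur in transcripts of other genes, 31.7% in those of Gm10093, and none of the Hdac2 windows do. How the authors treated reads with several matches is not given in the sources used here.

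Across 17 paralog pairs the direction was the same in both pools in 17 of 17, and 12 of 17 were at least 2-fold apart in both. The pairs under 2-fold in at least 1 pool were Smarca4 with Smarca2, Bcl7c with Bcl7b, Chd4 with Chd3, Mbd3 with Mbd2 and Gatad2a with Gatad2b. Since pairs share genes and libraries, these counts are a description. In the order of single genes the pools were less decisive: of 30 neighbouring pairs in the ranking of detected members, the ranges over the pools overlapped in 19.

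**Figure D3:**
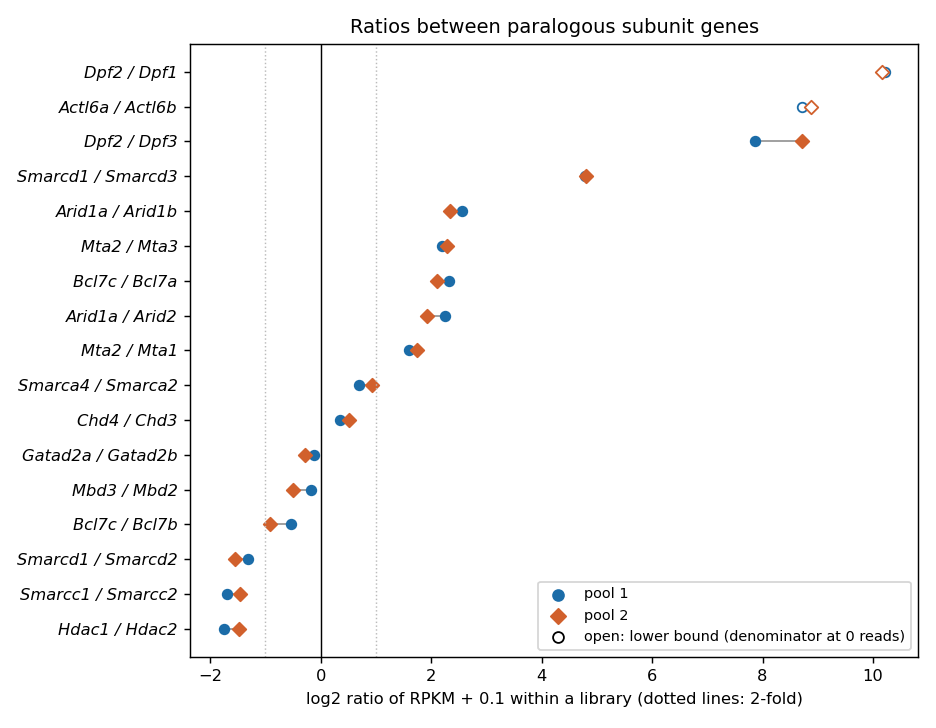
Log2 ratio of RPKM + 0.1 between paralogous genes in pool 1 (circles) and pool 2 (diamonds), with dotted lines at 2-fold; open symbols are lower bounds, the RPKM of the expressed gene over the value of 3 reads, without the added 0.1. The 2 lower bounds lie at 8.71 to 10.22, and 5 pairs have a symbol between the dotted lines.

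Between the pools the members differed little. Of the 31 detected members, 0 were 1.5-fold or more apart, where 8.45% of detected genes were, and 4.66% of the 8323 genes at 5 RPKM or more in both pools, among which all 31 lie. At 2-fold, 0 of 31 members were apart, beside 2.56% of detected genes and 1.23% of those at 5 RPKM or more. The median absolute log2 ratio was 0.08 over the members, 0.17 over detected genes and 0.15 over genes at 5 RPKM or more. The signed ratio (pool 2 over pool 1) had a median of -0.01 over the members and 0.04 over detected genes, and 12 of 31 members were higher in pool 2, beside 57.3%. Rank order over the 31 members was nearly the same in both pools (Spearman's rho 0.98, across genes, which are not independent replicates).

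The members furthest apart were 4 genes at least 1.2-fold higher in pool 1, a threshold chosen after the values were seen: Chd3, Arid1a, Bcl7c and Smarcb1. That is 4 of 31, a share (12.9%) near the 11.3% of detected genes, and 0 of 31 were 1.2-fold higher in pool 2, beside 21.6%. Chd3 was at 71.9 RPKM in pool 1 and 56.2 RPKM in pool 2, a log2 ratio of -0.35. The ratio of its RPKM in pool 2 to that in pool 1 has a 95% counting interval of 0.757 to 0.807, from at least 8960 and 6871 reads. The intervals were 0.766 to 0.817 for Arid1a, 0.732 to 0.899 for Bcl7c and 0.762 to 0.873 for Smarcb1. These intervals cover counting error only, not the spread between mice or preparations. In the other direction Smarcc1 had the highest log2 ratio, 0.22, with 13.3 RPKM in pool 1 and 15.6 RPKM in pool 2. The immediate early genes were far higher in pool 1 (median log2 ratio -4.69 over 8 genes), and neutrophil, eosinophil and erythroid genes higher in pool 2. The detected members stayed within 1.28-fold. Whether those differences enter the members' values was not tested.

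**Figure D4:**
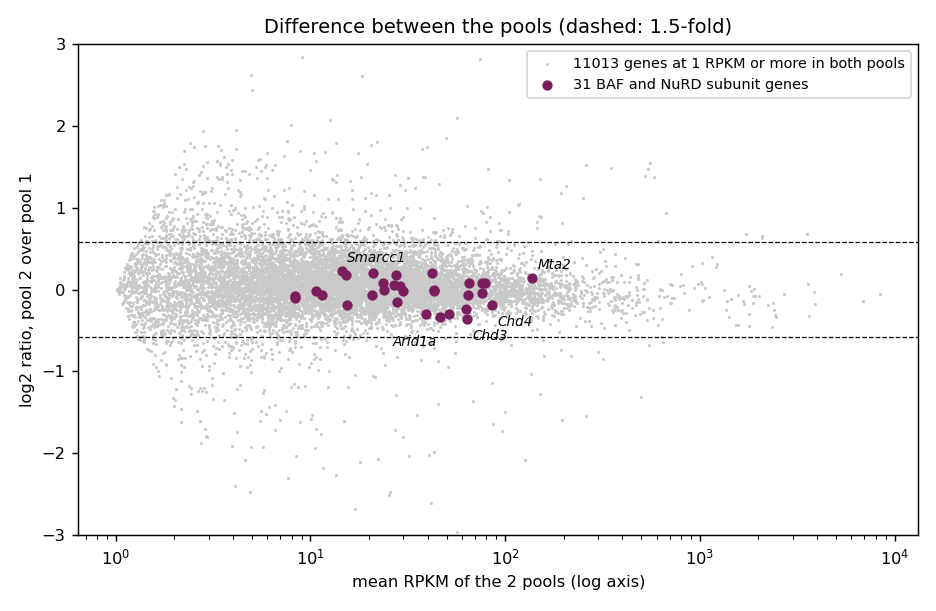
Log2 ratio of pool 2 to pool 1 against mean RPKM (log axis) for the 11013 detected genes (grey) and the 31 detected members (purple), with dashed lines at 1.5-fold; 16 genes lie outside the axis of ±3. All 31 members lie between the dashed lines, from -0.35 (Chd3) to 0.22 (Smarcc1).

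The promoters found for 27 of the 35 members had a high median content of CG dinucleotides, a property the choice of members did not use. The median was 30 CG per 300-base window over the 31 member promoters (range 4 to 62), against 7 over all 32851 RefSeq promoters, 21 over the 10683 promoters of detected genes and 3 over the 6615 promoters of genes listed at 0. The 4 promoters of members under detection held 40 (Smarcd3), 39 (Dpf1), 23 (Actl6b) and 17 (Dpf3) CG, a median of 31, although 2 of the 4 genes had 0 reads. The contrast can be read from the printed letters: the Dpf1 stretch has 24 CG in 196 bases and the Dpf2 stretch 17 in 250, while Dpf2 was at 75.8 ± 1.5 RPKM. In the Smarcd pair the undetected gene again had more CG. The Smarcd2 entry has 4 CG in its window, 0 of them in the 83 bases shown, beside 38 in the 240 bases of Smarcd3. Both Smarcd entries belong to starts inside the gene, while the RPKM is that of the whole gene. Phf10 had the most, 62 in its window, at 20.8 ± 0.632 RPKM.

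Motif letters were searched in the same windows on both strands. The GC box GGGCGG, which can be read by SP and KLF factors, was in 30 of 31 member promoters (96.8%), beside 35.7% of all promoters and 63.3% of those of detected genes. Dpf2 was the 1 without it. The ETS core CCGGAAG was in 4 (12.9%: Mta2, Gatad2a, Smarca2 and Smarcc1), beside 8.86% of all promoters and 19.5% of those of detected genes. TATAAA was in 2 (6.45%: Mbd3 and Smarcd2), beside 13.6% and 6.92%, and the NRF1 palindrome in 0, beside 0.971% and 2.25%. The GC box, ETS and NRF1 letters each hold a CG, so they are not independent of the CG count, and matches of different motifs may overlap. A match to letters does not show that a factor binds.

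**Figure D5:**
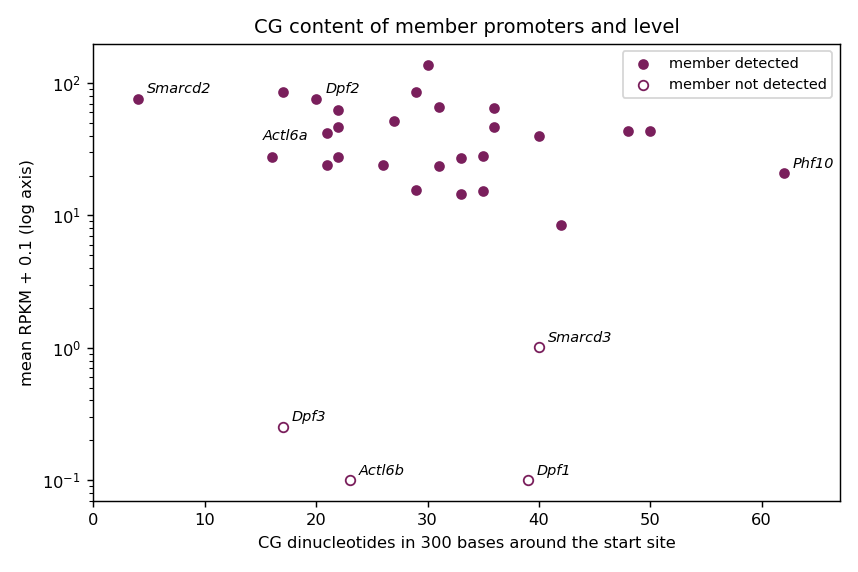
Number of CG dinucleotides in the 300-base promoter window against mean RPKM + 0.1 (log axis), 1 point per promoter of a detected (filled) or undetected (open) member; genes with 2 RefSeq promoters appear at each. The 4 open points, at 17 to 40 CG, lie within the range of the filled points (4 to 62 CG).

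Other remodelling genes gave a frame for these levels. Of 46 further symbols of the pathway 44 were matched to rows and 39 were detected, at a median log2 level of 3.81, against 4.91 for the 31 detected members and 3.86 for detected genes. None of the 39 was 1.5-fold apart between the pools (0 of 39, beside 8.45%), with log2 ratios from -0.41 to 0.31. Among partners of the same complexes 8 of 10 were detected. Actb, the actin that BAF carries beside the cytoskeleton's own supply, was highest at 1094 and 1358 RPKM. Rbbp7 and Rbbp4, histone-binding subunits of NuRD, were at 110 and 119 RPKM and at 81.2 and 93.1 RPKM, in the range of Mta2, Chd4 and Mbd2. The ncBAF genes were lower: Brd9 was at 14.7 and 13.1 RPKM, Gltscr1l at 22.2 and 18.8 RPKM and Gltscr1 at 16.0 and 12.1 RPKM. Chd5, the neuronal CHD ATPase of NuRD, was lowest at 0.0209 and 0.0213 RPKM, from at least 2 reads in each pool.

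Remodellers outside BAF and NuRD were detected in most cases. In the ISWI family 9 of 11 genes were detected, with Chrac1 highest at 77.8 and 77.4 RPKM and the ATPase gene Smarca1 lowest at 0.0244 and 0.0124 RPKM, while its paralog Smarca5 was at 11.0 and 12.2 RPKM. All 6 other CHD genes were detected, from 3.54 ± 0.334 RPKM (Chd7) to 14.2 ± 1.02 RPKM (Chd2). Of the INO80, SRCAP and TIP60 genes 8 of 8 were detected, from 8.37 ± 0.925 RPKM (Ino80) to 53.1 ± 5.04 RPKM (Ruvbl2). Smarca4 was thus above the ATPase genes Smarca5, Chd2, Chd7 and Ino80 in both pools, and Chd4 and Chd3 above Smarca4. Ruvbl2 was above Smarca4 as well, at 49.6 RPKM in pool 1 and 56.7 RPKM in pool 2. Genes of these lists named beside the highest and lowest were chosen after their values were seen.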

How the data were processed

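RNA-seq libraries of 2 pools of ILC2 progenitors, 1 group, were analysed, with groups taken from the labels. The authors deposited RPKM per Entrez gene, a unit read from the values. Per the submitters' processing notes, the tools were CASAVA 1.8.2, edgeR (3.8.2 and 3.22.0) and an unversioned featureCounts and the build mm10, with no roles stated. No aligner, strand setting or treatment of multiply matching reads is given in the sources used here.

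Levels were log2(RPKM + 0.1), averaged over the pools, and ratios used the same scale, which understates changes of low genes. Detection required 1 RPKM in both pools. Whole reads were recovered from the steps between values: 17233 of 17233 genes above 0 gave whole reads (100%), against 0.9% of 1000 genes with a total wrong by 1 in 1000. This control does not fix the factor: pool 1 totals of 10108073, 30324219 and 40432292 also gave 100% in 840 genes of 1 exon. In those genes the counted length equalled the RefSeq span for 45.7% at the totals used. It did for 26.4% at 40432292, 11.2% at 10108073 and 6.67% at 30324219. Totals, reads, floors and counting intervals rest on that choice. At the totals used, recovered reads are lower bounds, since multiples of a length also give whole reads. Their sums were 90.0% and 89.8% of the library totals. They served only for floors (3 reads) and 95% counting intervals, because PCR reads are not independent molecules. No count model was run, as 1 group of 2 libraries has no comparison.

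Coordinates and promoters come from RefSeq GRCm38.p6, and 50-base windows shared between genes from GENCODE M21 transcripts. Bicra and Bicral were matched under Gltscr1 and Gltscr1l. Every member is named. Of each list of other pathway genes, the highest and lowest are named, and any averaging 5 RPKM or more that is 2-fold apart (there was none). Of marker lists, the range is given for ILC2 and the highest gene for the others; other marker genes were named after their values were seen. The members, lists and motifs were chosen with earlier results of these data known. Nothing in the labels says more of the pools than their mice, so other shared steps are unknown. Analyses used Python 3.11.15, numpy 2.4.6, pandas 2.3.3 and scipy 1.17.1, and the recovery and ratios were tested on simulated data. Alternatives were other pseudocounts, filters and scalings and each pool alone.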

Additional observations from a re-analysis of the deposited data

How the results depend on the processing

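Of the main results, 42 values under alternatives stayed within a set margin and 7 moved, and no direction reversed. The margin was the spread between pools for levels, pair ratios and shares, and 1.5 times for counts. For the median log2 ratio it was the median half-width of counting error, 0.10. With a pseudocount of 1 the median log2 level was 4.86 over the members (4.81 with 0.1), 4.83 over shared BAF subunits, 4.08 over cBAF and 4.23 over PBAF. With each pool alone, the median over the members was 4.84 to 4.86, which both lie above the median of the averaged levels. With no filter on low values, 1 member (Dpf3) was 1.5-fold apart between the pools in place of 0, beside 20.8% of genes. Detected members numbered 32 at 0.5 RPKM, with Smarcd3 added, and 31 at 5 RPKM or in either pool alone. The median log2 ratio of the members was -0.06 after centring and -0.07 after upper-quartile scaling. Among single values, 84 stayed and 4 moved: the log2 ratio Dpf2/Dpf3 was 9.03 at a pseudocount of 0.01 and 6.06 at 1 (8.29 at 0.1), and Smarcd1/Smarcd3 was 4.93 and 3.92. Those single values are pair ratios and shares, for which each pool alone stays within the margin by construction. Either of 2 values lies within their SD of the mean, so only a change of pseudocount could move them. Leaving out a pool could not be done for values that compare the pools. No paired analysis was possible because there is only 1 group. Counting error, with a median half-width of 0.10 on the log2 ratio of a detected member, compares with a median absolute difference of 0.08.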

Other observations

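Among the 9 histone deacetylase genes outside NuRD, 8 were detected and all 8 were higher in pool 1, with log2 ratios (pool 2 over pool 1) from -0.41 to -0.02 and a median of -0.35. The background is that 57.3% of detected genes were higher in pool 2. Hdac7, a class IIa deacetylase of lymphocytes, was at 42.8 RPKM in pool 1 and 32.3 RPKM in pool 2. Hdac3, the enzyme of the NCoR and SMRT corepressors, was highest at 53.3 and 52.4 RPKM, and Hdac9 lowest at 0.279 and 0.228 RPKM. Hdac10 was at 15.5 and 12.5 RPKM, Hdac6 at 6.87 and 5.26 RPKM and Hdac11 at 6.01 and 4.61 RPKM. None of the 8 reached 1.5-fold. Of the NuRD enzymes, Hdac2 was also higher in pool 1, at 66.1 and 63.0 RPKM. Hdac1 was higher in pool 2, at 19.4 and 22.4 RPKM. The direction was seen in the data before it was counted, and it rests on 1 library a side.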
